A study of Mus musculus with 8 samples.

Results

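The genes described here encode 10 secreted factors of brown fat: Fgf21, Bmp8b, Nrg4, Vegfa, Il6, Gdf15, Cxcl14, Igf1, Metrnl and Fgf9. They were chosen by name, as proteins that brown adipose tissue is known to release, and are 10 of the 54385 genes in the deposited table. All 10 had a row, and 7 of them (Nrg4, Vegfa, Cxcl14, Igf1, Metrnl, Bmp8b and Fgf9) passed the filter on low counts, while Fgf21, Il6 and Gdf15 did not.

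RNA sequencing covered brown fat of chow-fed C57BL/6N mice at 20 weeks of age, in 4 WT and 4 cKO libraries. Both groups carry floxed Adcy3 on both alleles (Adcy3-FL/FL), so the WT group is a floxed control. The cKO group also carries 1 Adipoq-cre allele (Adipoq-wt/cre), whose promoter is active in adipocytes of brown and white depots alike. Other cells of the tissue keep an intact gene, and RNA came from whole tissue. WT replicates 1 to 3 are entered as Adipoq-wt/wt, but WT replicate 4 is entered as Adipoq-wt/cre although its title calls it WT, and it was kept with WT by its title. The sample labels name interscapular tissue, and the design text names an inguinal depot. All 6 brown adipocyte markers, Ucp1 among them at 2233 to 4545 CPM (counts scaled to a common library size), were detected in every library.

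Brown fat burns fuel to make heat when noradrenaline raises cyclic AMP in its adipocytes, and Adcy3 encodes adenylyl cyclase 3, which makes this messenger. The tissue also signals to others. FGF21, a hormone of fasting and mitochondrial stress, acts through FGF receptor 1 with the co-receptor beta-Klotho. BMP8B is a bone morphogenetic protein linked to thermogenesis, NRG4 is a ligand of ErbB3 and ErbB4 on other organs, and VEGF-A drives the growth of the dense capillary bed of brown fat. IL-6 is a cytokine, GDF15 a stress hormone read in the hindbrain through GFRAL and RET, CXCL14 a chemokine, IGF1 the insulin-like growth factor, METRNL (meteorin-like) a hormone of fat and muscle, and FGF9 a growth factor with no need of a Klotho.

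The stretches upstream of Fgf21, Bmp8b and Vegfa are shown because Fgf21 and Bmp8b had the highest cKO-to-WT ratios among the factors, on few counts, and Vegfa was the most abundant. Each gives the 250 bases before the RefSeq transcription start (GRCm38.p6), 5′ to 3′ on the gene's own strand: Fgf21 at chr7:45615491-45615740 (minus strand), Bmp8b at chr4:123104911-123105160 (plus strand) and Vegfa at chr17:46032378-46032627 (minus strand). Capitals mark matches on either strand to the 5 motifs described after the sequences.
Fgf21: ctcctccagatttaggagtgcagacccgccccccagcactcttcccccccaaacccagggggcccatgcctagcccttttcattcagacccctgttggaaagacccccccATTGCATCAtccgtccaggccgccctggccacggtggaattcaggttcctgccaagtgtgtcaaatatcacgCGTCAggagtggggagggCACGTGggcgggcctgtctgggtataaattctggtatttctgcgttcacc
Bmp8b: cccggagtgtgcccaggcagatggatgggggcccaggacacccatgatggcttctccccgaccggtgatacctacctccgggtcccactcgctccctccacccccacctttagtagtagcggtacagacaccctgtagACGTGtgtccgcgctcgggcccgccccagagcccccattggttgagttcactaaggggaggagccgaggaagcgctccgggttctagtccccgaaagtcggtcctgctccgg
Vegfa: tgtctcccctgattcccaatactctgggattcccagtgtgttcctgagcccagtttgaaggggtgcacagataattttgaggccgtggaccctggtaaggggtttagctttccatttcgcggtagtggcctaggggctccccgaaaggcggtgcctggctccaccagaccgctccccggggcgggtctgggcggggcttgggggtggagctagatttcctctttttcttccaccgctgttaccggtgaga

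Motifs were searched over both strands of RefSeq promoters, from 250 bases before to 50 after the start. The 10 genes have 12 such promoters, Vegfa and Gdf15 having 2 each, among 32851 in the genome. The full cyclic AMP response element TGACGTCA was found in 0 of the 12 (1.79% of all promoters) and its shorter core TGACG in 4 of the 12 (20.8% of all). These 4 were those of Fgf21, Il6 and Fgf9 and the second Vegfa promoter. The composite element of ATF4 and C/EBP factors, searched as TGATGNAAT, occurred in 1, that of Fgf21 (0.965% of all). There it reads ATTGCATCA on the printed strand, starting at position -140 from the start, with a TGACG core on the opposite strand at -68. The core of hypoxia response elements, ACGTG, was in 6 of 12 (19.6% of all), including Fgf21, Bmp8b and Nrg4, and the direct repeat read by nuclear receptors (DR1) in 0 (0.0396% of all). Of these motifs the first Vegfa promoter held none. A match is only a string of letters in the window.

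Libraries held 10713043 to 32437214 estimated counts in all, the deepest being WT replicate 1. Adcy3 stood at 112, 118, 61.7 and 118 CPM in WT replicates 1 to 4 and at 17.95 to 25.3 CPM in cKO, with every cKO library below every WT library (log2 fold change -2.26 ± 0.21 (SE), adjusted p = 0.000925 by edgeR). WT replicate 4, whose entry carries the Cre, thus lay with the other controls in Adcy3 and above every cKO library. The call of Adcy3 was lost with the replicate number as a block (adjusted p = 0.225), and also when WT replicate 4 was counted as cKO, which puts its 118 CPM among the low cKO values (adjusted p = 0.747). Skeletal muscle transcripts varied most among markers of other tissues, with summed levels of 39.3 to 8311 CPM in WT libraries and 144 to 10537 CPM in cKO over 12 genes, all detected in every library. A fit with the muscle score as a covariate called 0 of the secreted factors, but moved their log2 fold changes. They were 1.82 for Bmp8b, 0.46 for Igf1, 0.24 for Nrg4 and 0.10 for Metrnl, against 1.09, 0.31, 0.16 and 0.03 without it. Vegfa had 0.15 against 0.17, Fgf9 0.73 against 0.91 and Cxcl14 -0.18 against -0.17.

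None of the 7 secreted factors that could be tested passed edgeR's test at an adjusted p of 0.05. Among all 14553 genes tested edgeR called 10 (0.0687%), with 0.0481% higher and 0.0206% lower in cKO. Of the 7 factors 0 had an unadjusted p under 0.05 (5.60% of all genes did), and DESeq2 and limma-voom, which called 0.316% and 0.0687% of all genes, called 0. Log2 fold changes were above 0 for 6 of the 7 and below 0 for 1, with a median of 0.17, beside 51.8% above 0 and a median of 0.01 over all genes tested. The groups overlapped for all 7, while every cKO library lay above every WT library for 1.23% of genes and below for 2.27%. The abundant factors were measured closely enough to bound a difference, and the scarce ones were not.

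Compared per kilobase of transcript, the order of mean levels over 8 libraries was Vegfa (310 CPM per kilobase), Nrg4 (68.6), Igf1 (17.9), Cxcl14 (6.53), Metrnl (3.06), Fgf21 (0.556), Fgf9 (0.505), Bmp8b (0.285), Gdf15 (0.0793) and Il6 (0.0149). The lengths were medians over basic transcripts, such as 1143 bases for Vegfa, 1391 for Igf1 and 1464 for Nrg4. The order and shares with other transcript lengths were not tested. On these lengths, each of the first 5 lay above the next in the order in every pair of libraries, with no overlap of ranges. From Fgf21 down, each range overlapped that of the next gene, so their order was not resolved. Vegfa made up 72.3% to 80.7% of the summed level of the 10 per kilobase in single libraries and Nrg4 14.2% to 19.9%. Among all genes tested, 98.7% lay below Vegfa and 94.5% below Nrg4 on this scale, but only 3.38% below Bmp8b.

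**Figure D1:**
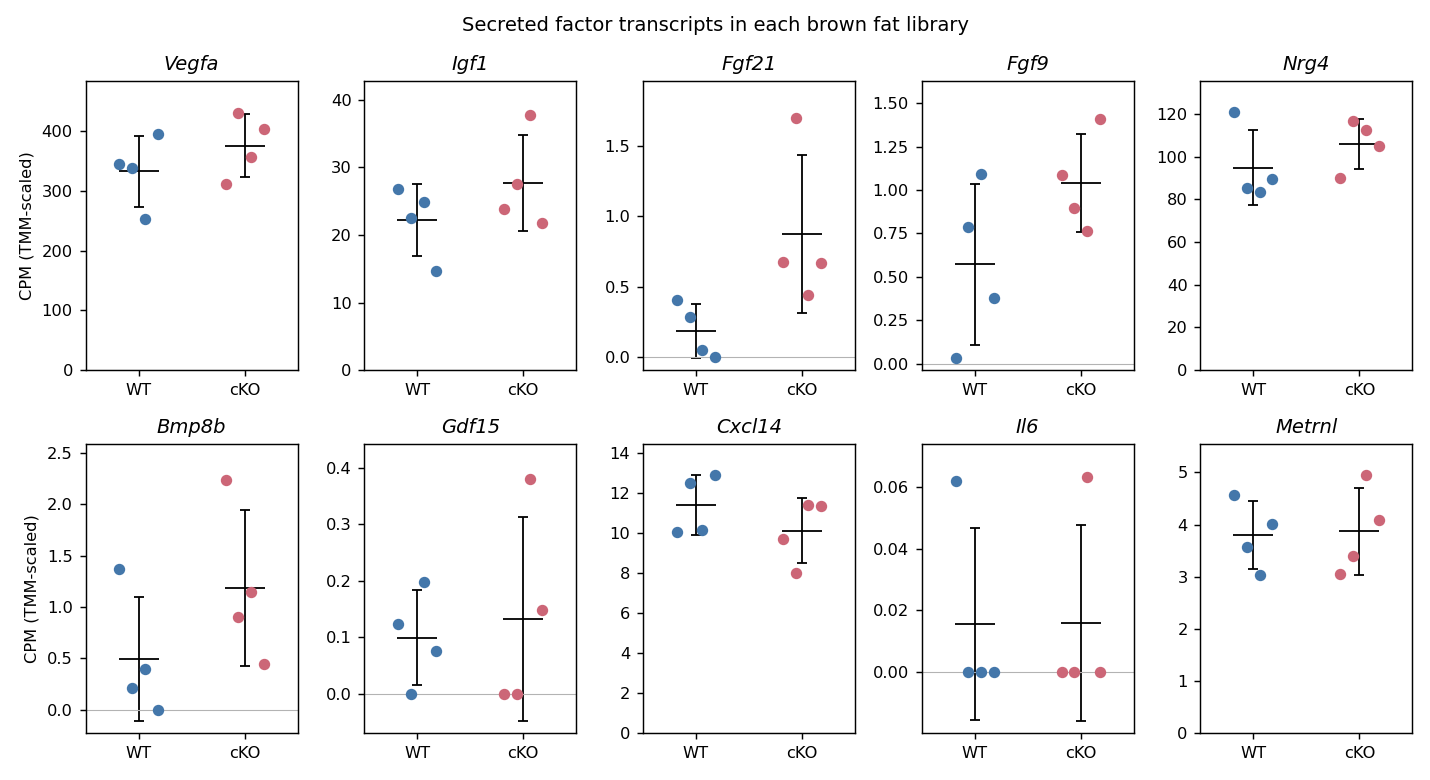
Level of each secreted factor in TMM-scaled CPM (y axis, own scale for each gene) in the 4 WT and 4 cKO libraries. Points are libraries, and bars are the mean and SD over 4. WT and cKO points interleave for every gene except Fgf21, where the 4 cKO libraries (0.444 to 1.70 CPM) lie above the 4 WT libraries (0 to 0.404 CPM).

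Vegfa (ENSMUSG00000023951, chromosome 17, 46016993 to 46032369, minus strand, GRCm38), the angiogenic factor, was the most abundant. Its level was 346, 338, 252.5 and 395 CPM in WT replicates 1 to 4 and 312, 431, 356 and 403 CPM in cKO replicates 1 to 4. WT replicate 3 was the lowest and cKO replicate 2 the highest, and the groups overlapped. The means of 333 ± 59.1 and 376 ± 52.6 CPM (SD, n = 4 each) differed by 0.17 ± 0.15 on the log2 scale (SE, adjusted p = 0.907 by edgeR), with a 95% interval of 0.901-fold to 1.41-fold. Leaving out WT replicate 3 lowered the log2 fold change to 0.07 and leaving out cKO replicate 2 to 0.10, while it was 0.27 without WT replicate 4. WT replicate 3 also had the highest summed endothelial markers, 473 CPM against 296 to 334 CPM in the other libraries, and the part of this in the Vegfa values was not tested. In whole tissue, fewer cells of a type and less RNA per cell cannot be told apart.

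VEGF receptors lie mainly on endothelial cells, and all 5 genes of that list (Flt1, Kdr, Flt4, Nrp1 and Nrp2) were measured. Flt1 and Kdr, which encode receptors of VEGF-A, had 152 ± 27.8 and 147 ± 32.3 CPM in WT libraries. In cKO libraries Flt1 and Kdr had 145 ± 25.5 and 145 ± 24.2 CPM. The co-receptors Nrp1 and Nrp2 had 126 ± 14.7 and 107.9 ± 19.6 CPM in WT libraries and 123 ± 23.2 and 95.6 ± 17.2 CPM in cKO. All 5 log2 fold changes were below 0 with a median of -0.07, and edgeR called 0, with 0 at an unadjusted p under 0.05. The 5 endothelial markers, all detected in every library, also had log2 fold changes below 0, from -0.53 (Cldn5) to -0.03 (Emcn), and WT replicate 3 was the highest library for Flt1 and Kdr, at 192 and 193 CPM, as for the marker sum. The part of these markers in the receptor values was not tested. Per kilobase, Vegfa exceeded Nrp1 (34.7 CPM per kilobase), the highest of its receptors. Vegfb, a relative of Vegfa, was at 83.4 CPM per kilobase with a log2 fold change of -0.05.

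Nrg4 (ENSMUSG00000032311, chromosome 9, 55220222 to 55326844, minus strand) encodes the brown fat neuregulin. It stood at 121, 85.5, 83.3 and 89.3 CPM in WT replicates 1 to 4 and at 90.0, 116, 113 and 105 CPM in cKO replicates 1 to 4. WT replicate 1 was the highest of all 8 libraries, while the other 3 WT libraries lay below every cKO library. The means were 94.8 ± 17.6 and 106 ± 11.6 CPM (log2 fold change 0.16 ± 0.14 (SE), 95% interval 0.908-fold to 1.38-fold, edgeR adjusted p = 0.907). Without WT replicate 1 the log2 fold change was 0.30 (edgeR adjusted p = 0.728). Nrg4 overlaps Fbxo22 on the opposite strand over 166 exonic bases, and the strand setting of the counts is not given in the sources used here. The same limit holds for Adcy3, which overlaps Cenpo over 1221 exonic bases, and for Bmp8b, which overlaps Gm17244 over 339, both on the opposite strand.

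The receptors of NRG4 were scarce in the tissue. Erbb3 and Erbb4 were at 0.693 and 0.463 CPM per kilobase, against 68.6 for Nrg4 itself. Erbb4 had 4.97 ± 1.43 CPM in WT libraries and 6.06 ± 1.39 in cKO, and Erbb3 4.25 ± 1.39 and 4.08 ± 0.927. Egfr, which binds other ligands of the family, had 6.84 ± 1.04 and 8.58 ± 1.86 CPM, and Erbb2, the co-receptor, 4.49 ± 1.83 and 4.16 ± 1.01. EdgeR called 0 of the 4, with 0 at an unadjusted p under 0.05.

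Igf1 (ENSMUSG00000020053, chromosome 10, 87858265 to 87937042, plus strand) encodes a growth factor that macrophages and stromal cells also make. Its level was 26.8, 22.5, 24.9 and 14.6 CPM in WT replicates 1 to 4 and 23.8, 27.5, 37.7 and 21.7 CPM in cKO replicates 1 to 4. WT replicate 4 was the lowest and cKO replicate 3 the highest, and the other 6 libraries overlapped. The log2 fold change was 0.31 ± 0.21 (SE, edgeR adjusted p = 0.901), from 22.2 ± 5.36 to 27.7 ± 7.09 CPM, with a 95% interval of 0.898-fold to 1.72-fold. It was 0.12 without cKO replicate 3, 0.17 without WT replicate 4 and 0.02 with WT replicate 4 moved to cKO. Higher values came without WT replicate 1 (0.42), without cKO replicate 4 (0.41) and with the muscle covariate (0.46).

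The summed level of 5 macrophage markers, all detected in every library, was 49.2 CPM in WT replicate 4 and 78.8 CPM in cKO replicate 3, the extremes for Igf1. The lowest macrophage sum, 37.6 CPM, belonged to cKO replicate 2, whose Igf1 level was the second highest. These sums ran between 49.2 and 77.7 CPM over WT libraries and between 37.6 and 88.9 CPM over cKO libraries, and their part in the Igf1 values was not tested.

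Of 11 genes for IGF receptors and binding proteins, 10 passed the filter and edgeR called 0. Log2 fold changes were above 0 for 7 and below for 3, with a median of 0.19. Insr, the insulin receptor, had 106 ± 18.8 CPM in WT libraries and 120 ± 24.7 CPM in cKO, and Igf1r 16.8 ± 2.57 and 16.1 ± 1.55 CPM. Igf2r, which clears IGF2, had 72.4 ± 13.7 and 71.3 ± 6.39 CPM. Among the binding proteins, Igfbp5 had 71.0 ± 3.72 and 89.5 ± 18.9 CPM (log2 fold change 0.33, unadjusted p = 0.0309, edgeR adjusted p = 0.882), with cKO replicate 1 at 117 CPM. Igfbp7 had 60.6 ± 9.07 and 56.9 ± 13.7 CPM.

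Cxcl14 (ENSMUSG00000021508, chromosome 13, 56288643 to 56296551, minus strand), a chemokine that attracts macrophages, was the tested factor whose log2 fold change was below 0. It stood at 10.045, 12.5, 10.2 and 12.9 CPM in WT replicates 1 to 4 and 9.69, 7.99, 11.4 and 11.4 CPM in cKO replicates 1 to 4. The highest 2 libraries were WT and the lowest 2 were cKO, with overlap between them. The log2 fold change was -0.17 ± 0.16 (SE, 95% interval 0.70-fold to 1.13-fold, edgeR adjusted p = 0.922), and -0.07 without cKO replicate 2. Cxcr4, a chemokine receptor reported to bind CXCL14, had 1.84 ± 0.533 and 2.24 ± 0.305 CPM. Its main ligand gene Cxcl12 had 89.1 ± 15.5 and 91.6 ± 7.72 CPM, and Ackr3, a scavenging receptor of CXCL12, 29.9 ± 10.8 and 41.9 ± 11.8 CPM. EdgeR called 0 of these 3, with 0 at an unadjusted p under 0.05.

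Metrnl (ENSMUSG00000039208, chromosome 11, 121701544 to 121716306, plus strand) was at 4.57, 3.57, 3.03 and 4.00 CPM in WT replicates 1 to 4 and at 3.05, 3.40, 4.95 and 4.08 CPM in cKO replicates 1 to 4. Both groups spanned nearly the same range. The log2 fold change was 0.03 ± 0.23 (SE, 95% interval 0.721-fold to 1.44-fold, edgeR adjusted p = 0.992). Its sign turned without WT replicate 3 (-0.06) or cKO replicate 3 (-0.12). Kit, reported as a receptor of METRNL, had 69.9, 11.8, 23.3 and 14.5 CPM in WT libraries and 18.8, 30.8, 32.2 and 25.4 CPM in cKO, a wide spread led by WT replicate 1.

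**Figure D2:**
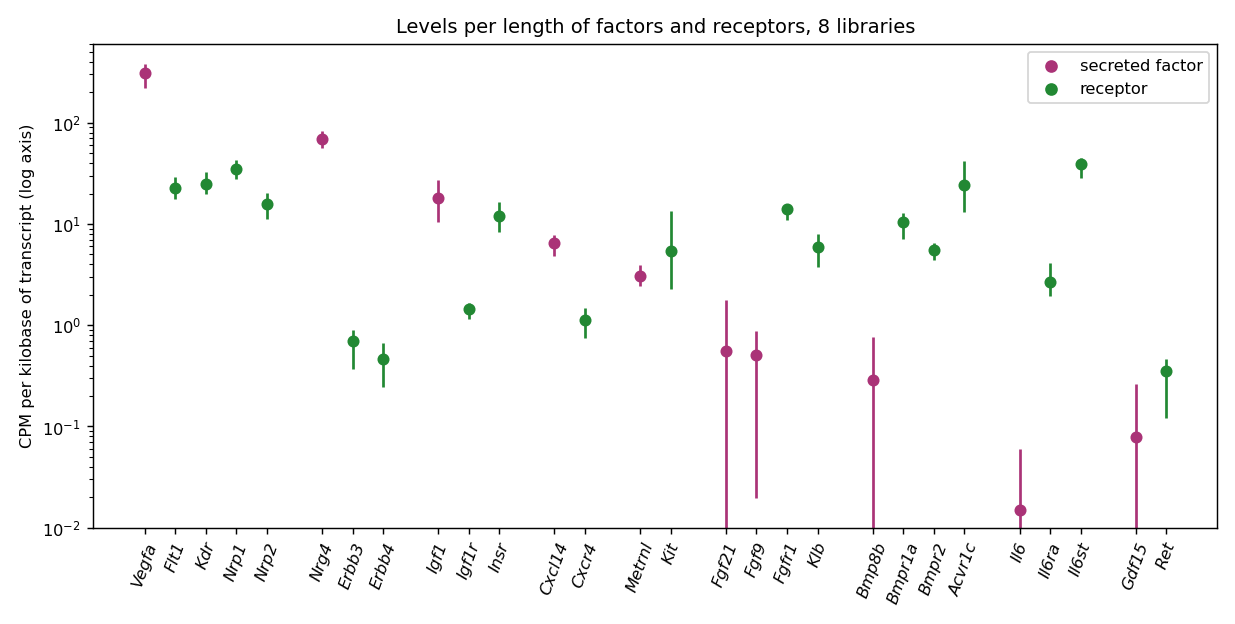
Mean level in CPM per kilobase of transcript (y axis, log scale) of each secreted factor and of receptors, over 8 libraries; vertical lines run from the lowest to the highest library, and lines that reach the bottom include libraries at 0. The means of Vegfa, Nrg4, Igf1 and Cxcl14 lie above those of the receptors drawn beside them. The means of Metrnl, Fgf21, Fgf9, Bmp8b, Il6 and Gdf15 lie below those of theirs. The range of Igf1 overlaps that of Insr, and the range of Metrnl that of Kit. Receptors at low level or at 0 (Fgfr4, Bmpr1b and Gfral) are not drawn.

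Bmp8b and Fgf9 just passed the filter and rest on few reads. Bmp8b (ENSMUSG00000002384, chromosome 4, 123105165 to 123132099, plus strand) gave 44, 3, 8 and 0 estimated counts in WT replicates 1 to 4 (1.37, 0.214, 0.397 and 0 CPM). In cKO replicates 1 to 4 it had 33, 9, 18 and 6 counts (2.24, 0.899, 1.14 and 0.445 CPM). WT replicate 1 lay above 3 of the cKO libraries, and the other WT libraries lay below all 4. The fitted log2 fold change, 1.09 ± 0.80 (SE, adjusted p = 0.901 by edgeR), had a 95% interval of 0.621-fold to 7.26-fold. It was 2.39 without WT replicate 1 (edgeR adjusted p = 0.712), 0.58 without cKO replicate 1 and 0.44 with WT replicate 4 moved to cKO. Bmp8a, its close copy, was at 0 to 0.20 CPM, and summing both gave 1.02.

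Among receptors for BMPs and their relatives, Bmpr1a, Bmpr2 and Acvr1c had far higher levels than Bmp8b. Bmpr1b, at 0.278 ± 0.471 CPM in WT libraries and 0.389 ± 0.419 CPM in cKO, did not pass the filter. Bmpr1a, a type I receptor, stood at 36.7, 38.0, 27.8 and 40.2 CPM in WT libraries and 47.4, 51.0, 45.0 and 44.2 CPM in cKO. Bmpr2, the type II receptor, stood at 70.1, 59.3, 57.3 and 67.8 CPM in WT libraries and 78.7, 83.3, 73.3 and 80.2 CPM in cKO. For both genes every cKO library lay above every WT library, an order that 1.23% of all genes tested had, and neither passed edgeR's test. Bmpr1a had a log2 fold change of 0.39 ± 0.12 (SE, unadjusted p = 0.00738, edgeR adjusted p = 0.814) and Bmpr2 0.31 ± 0.10 (SE, unadjusted p = 0.0117, edgeR adjusted p = 0.867).

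Acvr1c, a type I receptor abundant in adipocytes, had 58.4 ± 15.0 CPM in WT libraries and 80.9 ± 30.2 CPM in cKO. Smad5, which carries the BMP signal, had 39.6 ± 6.57 and 42.0 ± 2.76 CPM. Of the 18 listed receptors, Smads, inhibitors and BMP target genes, 15 passed the filter. Log2 fold changes were above 0 for 9 and below for 6, and edgeR called 0. The BMP target genes Id1 and Id3 had log2 fold changes of -0.22 and -0.13 and Id2 0.32. Bmp6, a relative at far higher level than Bmp8b, had 34.6 ± 9.37 and 29.2 ± 4.34 CPM.

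Fgf9 (ENSMUSG00000021974, chromosome 14, 58070547 to 58112720, plus strand) gave 1, 11, 22 and 5 estimated counts in WT replicates 1 to 4 (0.0311, 0.786, 1.09 and 0.377 CPM). In cKO replicates 1 to 4 it had 16, 9, 12 and 19 counts (1.08, 0.899, 0.762 and 1.41 CPM). WT replicate 1, the deepest library, was the lowest for Fgf9 and the highest WT library for Bmp8b. The log2 fold change was 0.91 ± 0.68 (SE, 95% interval 0.672-fold to 5.22-fold, edgeR adjusted p = 0.901). It was 0.43 without WT replicate 1 and 1.54 without WT replicate 3.

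Fgf21 (ENSMUSG00000030827, chromosome 7, 45613886 to 45615490, minus strand) was too scarce for the filter. It had 13, 4, 1 and 0 counts in WT replicates 1 to 4 (0.404, 0.286, 0.0497 and 0 CPM) and 10, 17, 7 and 9 counts in cKO replicates 1 to 4 (0.678, 1.70, 0.444 and 0.668 CPM). Every cKO library lay above every WT library, by a narrow margin between WT replicate 1 and cKO replicate 3. Among genes with at least 1 count, 0.769% had this order. The 0 in WT replicate 4 allows up to 0.226 CPM (3 counts), and that library is the one entered with the Cre allele.

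Summed over libraries, Fgf21 had 18 counts over WT libraries and 43 over cKO libraries, a ratio of 3.29 per total count with a 95% interval of 1.86 to 6.05 for counting error only. In an edgeR fit without a count filter its log2 fold change was 2.02 ± 0.66 (SE, unadjusted p = 0.00214). The adjusted p was 0.313 over 35502 genes, of which 0.262% were called and 5.51% had an unadjusted p under 0.05. Standard errors here differ from the filtered fit: 0.49 against 0.80 for Bmp8b, 0.14 against 0.21 for Igf1, 0.18 against 0.16 for Cxcl14. The p-value of Fgf21 is thus not on the scale of those of the tested factors. In the same fit Bmp8b and Igf1 also had an unadjusted edgeR p under 0.05 (0.0278 and 0.0424). With the filter these were 0.202 and 0.169. Fgf21 was not called by DESeq2 or limma-voom without a filter either (adjusted p = 0.725 and 0.708). With each library left out of the unfiltered fit, the log2 fold change ran from 1.52 to 2.87, and with WT replicate 4 moved to cKO it was 1.37. Singling out Fgf21 followed from its values.

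The receptors that FGF21 and FGF9 act on were present. Fgfr1 had 59.5 ± 8.29 CPM in WT libraries and 63.2 ± 3.56 CPM in cKO, and Klb, the beta-Klotho co-receptor of FGF21, 18.8 ± 4.00 and 23.2 ± 5.50 CPM (a log2 difference of 0.31, adjusted p = 0.896 by edgeR). Fgfr3 and Fgfr2 had 7.13 ± 1.60 and 5.14 ± 1.40 CPM in WT libraries and 6.99 ± 0.626 and 4.47 ± 0.498 CPM in cKO. EdgeR called 0 of the 4 that passed the filter among 6, and 0 had an unadjusted p under 0.05. The FGF relatives Fgf1 and Fgf2 had 14.5 ± 2.47 and 10.5 ± 2.26 CPM in WT libraries and 15.8 ± 8.52 and 11.7 ± 2.55 CPM in cKO.

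Gdf15 and Il6 were at the edge of detection. Gdf15 (ENSMUSG00000038508, chromosome 8, 70629393 to 70632456, minus strand) had 4, 0, 4 and 1 counts in WT and 0, 0, 6 and 2 in cKO. Il6 (ENSMUSG00000025746, chromosome 5, 30013114 to 30019981, plus strand) was counted 2 times in WT replicate 1, 1 time in cKO replicate 3 and 0 in the other 6 libraries. A count of 0 allows up to 0.0933 to 0.30 CPM, depending on the library. These counts bound a difference only widely. The Gdf15 ratio of cKO over WT was 1.22, with a 95% interval for counting error of 0.41 to 3.57. The Il6 ratio was 0.688, with an interval of 0.0117 to 13.2.

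The signalling genes of these pathways differed from their ligands in level. Il6st, the shared signal-transducing receptor, had 102 ± 17.0 CPM in WT libraries and 113 ± 10.8 CPM in cKO, and Il6ra, which binds IL-6 itself, 15.95 ± 6.15 and 15.8 ± 5.63 CPM. Jak1, Jak2 and Stat3, which relay the signal, had log2 fold changes of 0.14, 0.02 and -0.08. Gfral, the GDF15 receptor of the hindbrain, had 0 counts in all 8 libraries, and its partner Ret had 1.95 ± 0.543 and 1.55 ± 0.761 CPM.

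**Figure D3:**
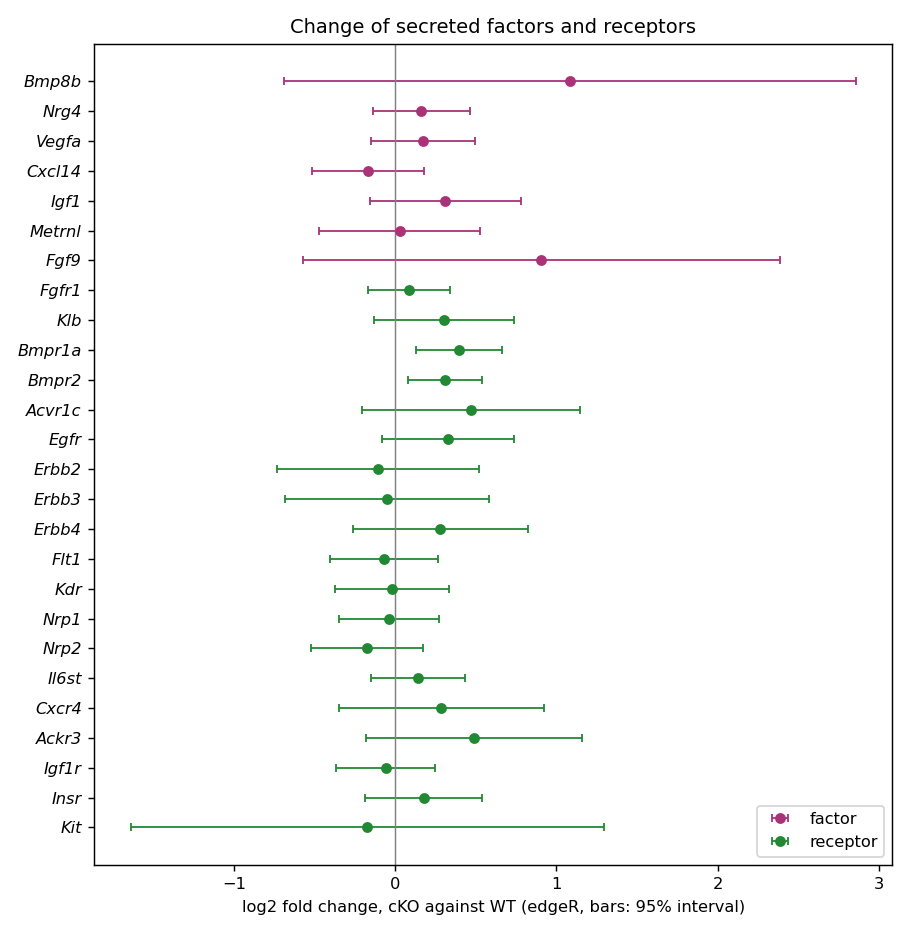
Log2 fold change of cKO against WT (x axis) with a 95% interval, approximated from the edgeR test, for the 7 tested factors and for receptors. Intervals of all 7 factors include 0, those of Bmp8b and Fgf9 are the widest among the factors, and those of Bmpr1a and Bmpr2 lie above 0 before adjustment over all genes.

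Across all lists of receptors, signalling genes, relatives and other secreted proteins of brown fat, 73 of 94 genes passed the filter on low counts. EdgeR, DESeq2 and limma-voom each called 0 of the 73. An unadjusted edgeR p under 0.05 was found for 3 (Bmpr1a, Bmpr2 and Igfbp5), beside 5.60% of all genes tested. The median log2 fold change of the 73 was 0.04, with 40 above 0 and 33 below. Among other proteins released by brown fat, Sparc, a matrix protein, had 656 ± 94.5 and 628 ± 55.6 CPM, and Angptl4, an inhibitor of lipoprotein lipase, 101 ± 30.4 and 84.3 ± 39.0 CPM. Rbp4, a retinol carrier, had 79.9 ± 20.9 and 99.5 ± 17.1 CPM, and Pltp, a phospholipid transfer protein, 71.3 ± 19.0 and 62.1 ± 12.2 CPM. These 4 lay well above Metrnl, Fgf21 and Bmp8b per kilobase.

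For Igf1, Vegfa and Cxcl14, the factors of at least 5 CPM that varied most over the 8 libraries, the closest patterns were sought among 9566 protein-coding genes. Likeness was the root mean square difference of log2 CPM after centring each gene on its own mean, which describes these libraries only. Igf1 varied with an SD of 0.38 and was followed most closely by Hoxb3 (0.15), Lgals9 (0.16) and Mitd1 (0.16). Vegfa, with an SD of 0.24, was closest to Qrsl1 (0.05), Atad1 (0.06) and Ahctf1 (0.06). Cxcl14, with an SD of 0.22, was closest to Rasd1 (0.08), Pspc1 (0.10) and Prkce (0.10).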

How the data were processed

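The authors deposited 1 table of estimated counts per Ensembl gene and library, not scaled to depth. The submitters' processing notes name StringTie, Salmon and edgeR and the build GRCm38, with no version or setting. The annotation release and strand setting were not given in the sources used here. Total RNA went into NEBNext Ultra II paired-end libraries, per the labels' protocols.

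Counts were rounded. Symbols, positions and transcript lengths (median over basic transcripts) came from GENCODE M21, which named 99.5% of identifiers. Genes were kept by filterByExpr, scaled by TMM and tested with edgeR 4.0.16 under R 4.3.3 (robust quasi-likelihood, Benjamini-Hochberg adjusted over 14553 genes, threshold 0.05). DESeq2 1.42.0 and limma-voom (limma 3.58.1) were alternatives, beside other scalings, filters, a replicate block, left-out libraries, WT replicate 4 moved, mitochondrial genes removed and a muscle covariate. The test was tried on simulated data. CPM are TMM-scaled, log2 CPM has a prior count of 2, and intervals and floors on counts cover counting error only.

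The members and lists were chosen with earlier results of these data known. From each list up to 4 genes that passed the filter, with the highest mean CPM, are named. Igf1r, Il6ra, Gfral, Bmp8a, Id1, Id2 and Id3 were added for their roles or values. Ucp1, Fbxo22, Cenpo, Gm17244, Fgfr4, Flt4, Bmpr1b, Cldn5 and Emcn were added likewise. The labels do not say that libraries came from separate animals, so the spread behind each p-value is that between libraries and may be technical. No pair of libraries within a group agreed within sampling noise (smallest chi-square per degree of freedom 14.5).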

Additional observations from a re-analysis of the deposited data

Results flagged for a closer look

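Nrg4 in WT replicate 1 stood at 121 CPM, far from the next WT library at 89.3 CPM, the gap being 0.84 of the group's range. Adcy3 in WT replicate 3 stood at 61.7 CPM, far below the next WT library at 112 CPM, with a gap of 0.892 of the range. Both gaps exceed Dixon's 95% critical value for 4 samples. Chance flags about 1 in 20 groups, and 16 groups were examined.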

How the results depend on the processing

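The counts of called factors (0) and of called receptors, relatives and other secreted proteins (0) were 0 under all 18 alternatives, which included DESeq2, limma-voom and each library left out. Over all genes DESeq2 called 46, edgeR without a filter 93, the replicate block 7 and the fit with WT replicate 4 moved 1, against 10. The Adcy3 log2 fold change was -2.23 with the replicate block and -1.26 with WT replicate 4 moved, both past no threshold, and -2.44 to -2.18 with single libraries left out. The move puts a library at 118 CPM of Adcy3 among cKO libraries at 17.95 to 25.3 CPM; for the block the cause was not tested. Metrnl turned to -0.06 without WT replicate 3 and -0.12 without cKO replicate 3, within a range of -0.12 to 0.14 over single libraries left out. The other 6 tested factors kept their direction under every alternative that gave a value. Bmp8b had none at 1 CPM in 4 libraries, nor had Fgf9 under the same filter. The log2 fold changes ran from 0.44 to 2.39 for Bmp8b, 0.43 to 1.88 for Fgf9, 0.02 to 0.46 for Igf1, 0.07 to 0.28 for Vegfa, 0.09 to 0.30 for Nrg4 and -0.23 to -0.02 for Cxcl14. The unfiltered fits of Fgf21 were chosen after seeing the data, and its adjusted p ran from 0.111 to 0.819 over 12 of them. Same-numbered libraries shared deviations with correlations of -0.46, 0.03, 0.41 and 0.00, and only WT replicate 3 correlated best with its own number. These correlations cover all genes tested, the widely varying muscle transcripts among them, so they cannot decide whether the number pairs libraries. The log2 fold changes in the block fit were 1.54 for Bmp8b and 1.20 for Fgf9. A count of 0 allows up to 0.0933 to 0.30 CPM, so lower levels of Gdf15 and Il6 are not seen, while Bmp8b also spread between WT libraries, from 0 to 44 counts.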
